A study of Homo sapiens with 6 samples.

Results

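The genes of mitochondrial complex I that are encoded in the nucleus were followed in SW480, a long-established cell line from a human colorectal adenocarcinoma, kept for 24 h in DMSO or in MPM-1. MPM-1, which the sample labels call WT4, is a small fluorescent probe made to reach mitochondria, and DMSO is its solvent control. The labels give the genotype of all cells as WT and the same growth medium for both groups, and the dose of MPM-1 for this experiment is not given in the sources used here. There were 3 mRNA libraries per treatment, numbered as replicates 1 to 3, and nothing states that they came from separate cultures, so the p-values measure the spread between these libraries, which may be technical. Members were all rows of the table whose symbol starts with NDUF, which gave 47 of the 12982 genes. Of these, 37 encode subunits of complex I (symbols with NDUFA, NDUFB, NDUFC, NDUFS or NDUFV), 8 encode NDUFAF assembly factors, and NDUFA4 and NDUFA4L2 carry the name without belonging to the complex.

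Complex I takes electrons from NADH, passes them along a flavin and a chain of iron-sulphur clusters to ubiquinone, and uses the energy to pump protons out of the mitochondrial matrix. The matrix arm holds the N module, where NADH is oxidized, and the Q module, where ubiquinone is reduced, while the proton-pumping core of the membrane arm is encoded by mitochondrial DNA. Around the core sit accessory subunits, all from nuclear genes, and assembly factors help to build the complex without staying in it. The 37 subunit rows were 7 core and 30 accessory subunits, which covers every nuclear subunit of the human complex.

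The libraries held between 31733667 and 40269820 counts, and no member had fewer than 69 counts in any library. Values between libraries are given as CPM, counts brought to a common library size with TMM factors, and values between genes as the deposited FPKM, which is also divided by length. Of 7 colorectal epithelial markers, 7 were in the table. In edgeR at an adjusted p-value under 0.05, 4 were higher after MPM-1 (KRT8, KRT18, KRT19 and CDH1, log2 fold changes from 0.42 to 0.89). At the same threshold 2 were lower (CDX2 and VIL1, -2.20 and -0.88). In either direction 85.7% of these markers changed, against 56.5% of all genes. EPCAM, an epithelial adhesion protein, was at 638 to 733 CPM in the 6 libraries. CDX2, an intestinal transcription factor, was at 79.1 to 86.1 CPM with DMSO and 13 to 20.9 CPM with MPM-1. Of 8 markers of other cell types, CD68 (57.3 to 86 against 136 to 153 CPM) and COL1A1 (2.67 to 3.34 against 0.197 to 1.2 CPM) had rows, and the part of any of these markers in the results was not tested.

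A gene is called changed at an adjusted p-value under 0.05 in edgeR's quasi-likelihood test over all 12982 genes, and a DEG where the adjusted p-value was under 0.01 and the log2 fold change at least 1 in size. Log2 fold changes are MPM-1 over DMSO. Among all genes tested, 56.5% changed, 27.7% higher and 28.8% lower, with a median log2 fold change of -0.03.

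More subunit transcripts were lower than higher after MPM-1. Of the 37 subunits, 18 were lower (48.6%, against 28.8% of all genes), 2 were higher (against 27.7%), and 17 did not pass the test. Their median log2 fold change was -0.27, with a range from -1.01 to 0.43, and 30 of the 37 values were below 0. In 20 subunits all 3 MPM-1 libraries lay below all 3 DMSO libraries, and in 4 they lay above, where the shares over all genes were 33.3% and 31.0%, or 64.3% in either direction. The 8774 genes within the range of mean CPM that the subunits span, from 8.76 to 197, had 28.4% lower and 30.6% higher calls and a median of 0.01. CPM, scaled here with TMM factors, is a level relative to other RNA and not an amount per cell. In bulk libraries a smaller amount of a transcript in every cell, a loss in some cells and a rise of other RNA cannot be told apart. With library size alone in place of TMM, the median of all genes moved to -0.18 and 28 subunits were lower and 1 higher. Of all 12982 genes, 4871 were then lower and 2589 higher, against 3740 and 3596 with TMM. With limma on log2(FPKM + 0.1), 27 subunits were lower and 1 higher, beside 4042 and 2345 of 11497 genes.

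The summed level of the subunits was 3520, 3300 and 3630 CPM in the DMSO libraries and 2770, 2930 and 2800 CPM in the MPM-1 libraries. These sums did not overlap. Their means were 3480 ± 168 and 2830 ± 85.0 CPM (SD, n = 3 libraries each). The 7 core subunits together went from 1070 ± 36.1 to 799 ± 22.9 CPM, and the 8 assembly factors together were at 253 ± 17.0 and 237 ± 13.7 CPM.

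**Figure D1:**
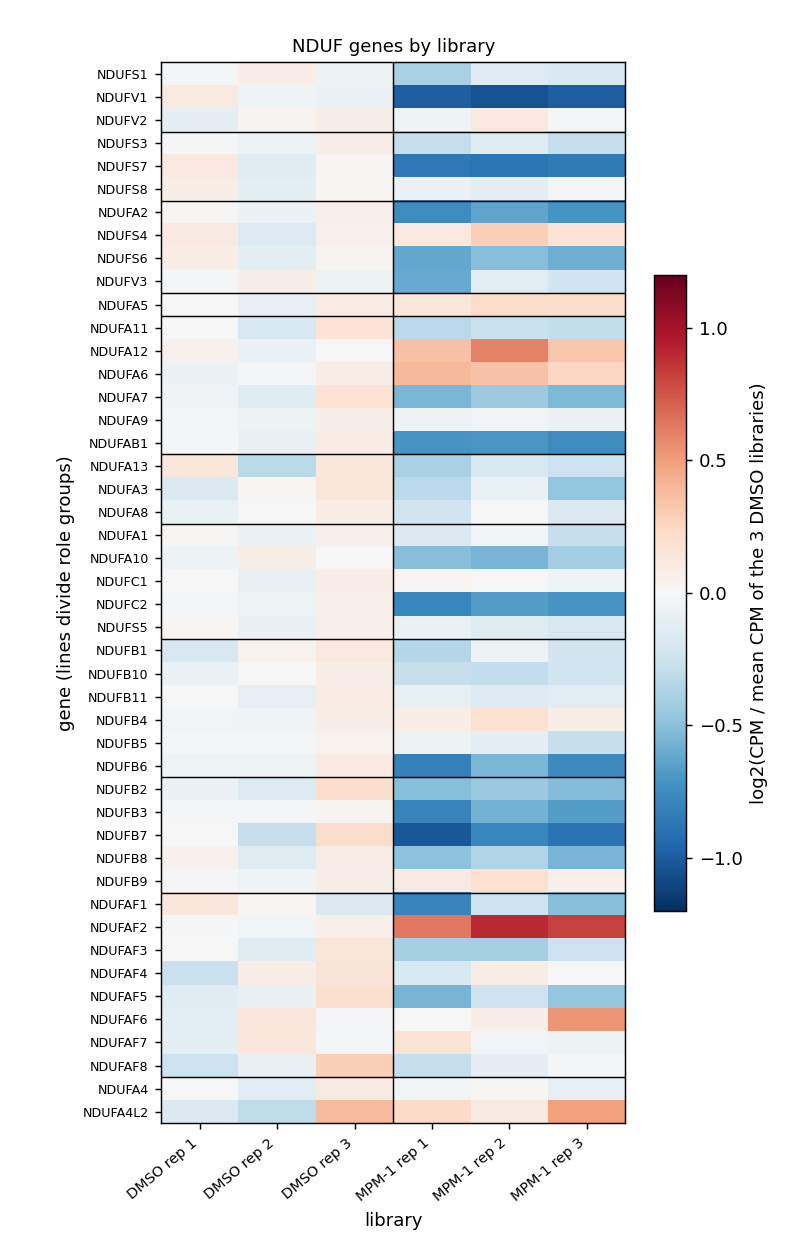
Each row is an NDUF gene of the text and each column a library, and the colour gives log2 of the library's CPM over the mean CPM of the 3 DMSO libraries, blue for lower and red for higher, with lines between role groups. NDUFV1, NDUFS7 and NDUFB7 are dark blue in all 3 MPM-1 libraries, NDUFAF2 is red in all 3, and NDUFV2, NDUFS8 and NDUFA9 stay pale.

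What the members share in their promoters was read from RefSeq sequences on GRCh38.p14, from 250 bases before to 50 bases after each annotated start, which were matched by symbol for 39 of the 47 members. Those not matched included NDUFA4, NDUFA4L2, NDUFAF6, NDUFB5, NDUFB9, NDUFC2 and NDUFS5. Motifs of 3 factors known for respiratory chain genes were searched on both strands. A member or tested gene held a motif where any of its promoters did, and 6 members had several promoters. The share over all 35116 promoters counts each promoter by itself. The YY1 motif AANATGGCG was held by 12 of the 39 members (30.8%), against 8.35% of the 9595 tested genes matched in the same way and 3.19% of all 35116 promoters. The NRF1 motif, GCGC and GCGC with 2 bases of any kind between them, was held by 8 members (20.5%, against 18.6% and 8.32%), and the ETS motif CCGGAAG, read by GABPA, by 7 members (17.9%, against 22.9% and 10.3%). By response, 6 of 19 lower members, 1 of 3 higher members and 5 of 17 members not past the test held the YY1 motif.

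The YY1 matches lay close to the start of translation. In 9 of the 12 members the match covered an annotated start codon, the ATG inside the motif, and with only the bases before the start of transcription searched, 2 members (5.13%) held it, against 2.9% of the tested genes and 1.38% of all promoters. These stretches are shown because they carry the feature that most members with a match have in common. The capitals mark the motif, and each stretch is written 5′ to 3′ on the strand of its gene, with coordinates on GRCh38.p14. NDUFS7, NDUFB8, NDUFA7 and NDUFS6 were lower after MPM-1, NDUFA6 was higher, and NDUFA9 did not pass the test.
NDUFS7, chr19:1383916-1383940, plus strand: ccgaggccAAGATGGCGgtgctgtc
NDUFB8, chr10:100529838-100529862, minus strand: agaaggtgAAGATGGCGgtggccag
NDUFA7, chr19:8321345-8321369, minus strand: gcggacggAAGATGGCGtccgccac
NDUFS6, chr5:1801407-1801431, plus strand: agcggcgcAAAATGGCGgcggcgat
NDUFA6, chr22:42090731-42090755, minus strand: gctttggcAAGATGGCGgggagcgg
NDUFA9, chr12:4649116-4649140, plus strand: tgtgggaaAAGATGGCGgctgccgc

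The promoter stretches before the first exon of NDUFA12 and NDUFAF2, the largest rises among the subunits and the assembly factors, and of NDUFB7, the largest fall among the accessory subunits, are given for comparison. Capitals mark the NRF1 motif in NDUFA12 and the ETS motif in NDUFB7, and none of the 3 motifs was found in the stretch of NDUFAF2. A match describes letters in a window and is not shown to be a bound site.
NDUFA12, chr12:95003771-95003947, minus strand: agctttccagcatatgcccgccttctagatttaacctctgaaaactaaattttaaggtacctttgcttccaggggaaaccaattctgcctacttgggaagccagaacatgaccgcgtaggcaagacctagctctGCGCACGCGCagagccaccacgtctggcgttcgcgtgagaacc
NDUFAF2, chr5:60945074-60945128, plus strand: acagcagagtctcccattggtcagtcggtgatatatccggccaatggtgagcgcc
NDUFB7, chr19:14572067-14572316, minus strand: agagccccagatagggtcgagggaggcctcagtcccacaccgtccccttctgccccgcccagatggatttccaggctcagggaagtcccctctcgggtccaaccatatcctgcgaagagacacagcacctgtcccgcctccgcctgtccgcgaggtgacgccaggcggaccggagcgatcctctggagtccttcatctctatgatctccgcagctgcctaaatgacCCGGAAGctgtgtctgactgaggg

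Of the 7 core subunits, 5 were lower (71.4%, against 28.8% of all genes) and 2 did not pass the test, with a median log2 fold change of -0.24. In the N module, NDUFV1, which binds NADH and the flavin (chr11:67605653-67612554, GRCh38, GENCODE release 29), was at 257, 229 and 227 CPM with DMSO and at 120, 115 and 120 CPM with MPM-1. The MPM-1 libraries lay far below the DMSO libraries, and the log2 fold change of -1.01 (SE 0.0774, adjusted p = 7.9e-06) made it the 1 DEG among the 47 members, where 14.3% of all genes were DEGs (5.58% higher and 8.75% lower). Its place just past the threshold turned on the setting, since the log2 fold change was -0.99 with DESeq2's test and between -1.04 and -0.95 with 1 library left out, while the fall itself passed the test in every setting run.

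NDUFV2, the partner of NDUFV1 in the same flavoprotein part and a carrier of an iron-sulphur cluster (chr18:9102630-9134345), was at 113, 125 and 128 CPM with DMSO and 118, 132 and 121 CPM with MPM-1. The treatments overlapped (log2 fold change 0.02, SE 0.0818, adjusted p = 0.867), and the sign was negative in several settings. Within a library, the count of NDUFV1 was 1.77 to 2.28 times that of NDUFV2 with DMSO and 0.871 to 1.02 times with MPM-1. These ranges do not overlap, and no test of the ratio was run. On the same strand, NDUFV2 shares 28.4% of its exon bases with AP005263.1 and NDUFV1 shares 8.4% with AP003385.3. How the authors' counting assigned such reads is not given in the sources used here. NDUFS1, the largest core subunit and a carrier of iron-sulphur clusters (chr2:206114817-206159603), was at 139, 148 and 134 CPM against 107, 126 and 123 CPM. It fell by 0.24 on the log2 scale (SE 0.0863, adjusted p = 0.0357), and the call was lost without DMSO replicate 1 or 2 or MPM-1 replicate 1 or 3, with adjusted p-values of 0.0565 to 0.145.

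In the Q module, 3 of 4 core subunits were lower. NDUFS7, which carries the last iron-sulphur cluster before ubiquinone (chr19:1383527-1395589), was at 185, 155 and 173 CPM with DMSO and at 94.2, 92.9 and 95.2 CPM with MPM-1. All MPM-1 libraries were below all DMSO libraries, with a log2 fold change of -0.86 (SE 0.0827, adjusted p = 2.78e-05). NDUFS8, which carries a further pair of clusters (chr11:68030617-68036644), was at 170, 150 and 165 CPM against 154, 150 and 159 CPM. Its libraries overlapped (log2 fold change -0.07, SE 0.0762, adjusted p = 0.492). The count of NDUFS7 was 1.04 to 1.09 times that of NDUFS8 with DMSO and 0.599 to 0.618 times with MPM-1.

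NDUFS3 lay between these extremes. An early member of the assembling Q module (chr11:47565336-47584562), it was at 93, 91 and 100 CPM with DMSO and 77.6, 84.8 and 77.9 CPM with MPM-1 and fell by 0.24 on the log2 scale (SE 0.077, adjusted p = 0.0224). The groups did not overlap. The call of NDUFS3 was lost without DMSO replicate 3 or MPM-1 replicate 1 or 3, with adjusted p-values of 0.0744 to 0.103. NDUFS3 shares 19.6% of its exon bases with PTPMT1 on the same strand, and whether the authors' counting split such reads is not given in the sources used here. NDUFS7 shares 35.7% of its exon bases with an antisense gene, and whether the counting used strand is not given either.

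**Figure D2:**
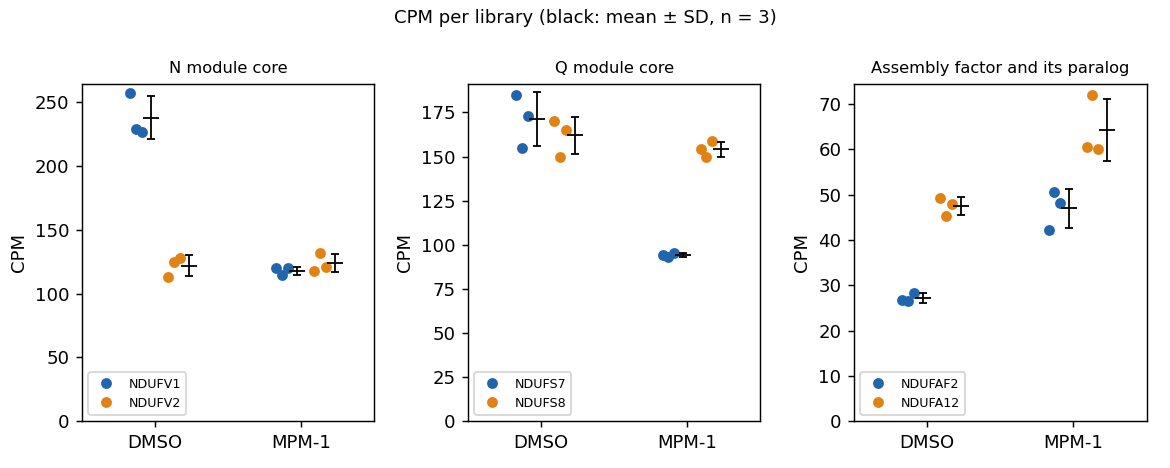
Points are CPM in single libraries and black bars the mean ± SD of 3 libraries, with every axis starting at 0. NDUFV1 falls from above 220 to at most 120 CPM while NDUFV2 stays at 113 to 132 CPM, NDUFS7 falls to 92.9 to 95.2 CPM while NDUFS8 stays at 150 to 170 CPM, and NDUFAF2 and NDUFA12 are both higher with MPM-1.

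Among the 30 accessory subunits, 13 were lower, 2 were higher and 15 did not pass the test, with a median log2 fold change of -0.27. In the N module, NDUFA2, a small subunit with a thioredoxin-like fold (chr5:140638740-140647785), was at 76.3, 72 and 78.9 CPM with DMSO and 44.8, 48.8 and 46.2 CPM with MPM-1. The groups were well apart, and NDUFA2 fell by 0.70 on the log2 scale (SE 0.0766, adjusted p = 6.01e-05). NDUFS6, a zinc-binding subunit, fell by 0.57 (SE 0.0807, adjusted p = 0.000277). NDUFV3 and NDUFS4 did not pass, with log2 fold changes of -0.31 (adjusted p = 0.0814) and 0.19 (adjusted p = 0.109), and NDUFA5 of the Q module had 0.19 (adjusted p = 0.0641). In all, 4 of 7 N module subunits (57.1%) and 3 of 5 Q module subunits (60.0%) were lower, core subunits included. Of all genes, 28.8% were lower. The 6 subunits whose module differs between schemes or that join late, described next, are in neither count.

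Both subunits that rose belong to the 6 whose module differs between schemes or that join late. NDUFA12, which takes its place on the matrix arm in a late step (chr12:94897055-95003770), was at 49.3, 45.4 and 47.9 CPM with DMSO and at 60.6, 72.1 and 60.1 CPM with MPM-1. Every MPM-1 library was above every DMSO library, with a log2 fold change of 0.43 (SE 0.0917, adjusted p = 0.00291), and the call stood in every setting. NDUFA6, a member of the LYR protein family that holds an acyl carrier protein in the complex (chr22:42085525-42090955), was at 46.2, 48 and 51.2 CPM against 63.2, 61.7 and 57.6 CPM. It rose by 0.33 on the log2 scale (SE 0.0788, adjusted p = 0.00592), and the call was lost with library size alone (0.17, adjusted p = 0.0947) and on the FPKM scale.

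The other 4 of this group did not rise. NDUFAB1, the mitochondrial acyl carrier protein, which also serves fatty acid and iron-sulphur cluster synthesis (chr16:23581002-23596356), was at 150, 142 and 161 CPM with DMSO and 92.5, 93.1 and 89.7 CPM with MPM-1. It fell by 0.72 on the log2 scale (SE 0.0751, adjusted p = 4.43e-05), with no overlap. NDUFA7 fell by 0.50 (adjusted p = 0.00139) and NDUFA11, at the membrane arm, by 0.30 (adjusted p = 0.022), the latter call being lost without DMSO replicate 3 or any single MPM-1 library. NDUFA9, which lies near the ubiquinone site, was level at 148 to 162 CPM with DMSO and 147 to 151 CPM with MPM-1 (log2 fold change -0.05, adjusted p = 0.566). NDUFA7 shares 32.3% of its exon bases with another coding gene on the same strand.

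The membrane arm count takes the 19 accessory subunits of the ND1, ND2, ND4 and ND5 modules and leaves out NDUFA11. Of these 19, 8 were lower (42.1%, against 28.8% of all genes), 0 were higher and 11 did not pass the test. At the outer end, around the mtDNA-encoded pump ND5, 4 of 5 were lower, with a median log2 fold change of -0.49. NDUFB7, a subunit on the face towards the intermembrane space (chr19:14566078-14572062), was at 113, 93.5 and 131 CPM with DMSO and 56, 65.8 and 61.1 CPM with MPM-1. The DMSO libraries spread widely but stayed above all MPM-1 libraries, and the log2 fold change was -0.89 (SE 0.123, adjusted p = 0.000247). NDUFB3 fell by 0.68, NDUFB2 by 0.49 and NDUFB8 by 0.46 on the log2 scale (adjusted p = 0.000238, 0.0026 and 0.00163). NDUFB8 shares 33.8% of its exon bases with another coding gene on the same strand. On the other strand, NDUFB2 shares 27.9% with BRAF and NDUFB3 shares 19.8% with FAM126B. NDUFB9 of the same module was at 183 to 198 CPM with DMSO and 197 to 214 CPM with MPM-1 (log2 fold change 0.11, adjusted p = 0.229).

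In the ND4 and ND2 modules, fewer subunits passed the test. NDUFB6 of the ND4 module (chr9:32552999-32573184) was at 77.1, 77.1 and 85.3 CPM with DMSO and 45.4, 54.6 and 47 CPM with MPM-1, a fall of 0.70 on the log2 scale (SE 0.092, adjusted p = 0.000175) with no overlap. NDUFB10 fell by 0.27 (adjusted p = 0.0119), a call lost without DMSO replicate 3 and with the offset for GC content and length, and the other 4 of this module did not pass, with log2 fold changes from -0.20 to 0.11. NDUFC2 of the ND2 module (chr11:78068304-78080219) was at 57.6, 56.1 and 60.4 CPM against 33.8, 36.5 and 35.4 CPM and fell by 0.72 (SE 0.0777, adjusted p = 5.56e-05). NDUFA10, a relative of nucleoside kinases, fell by 0.49 (adjusted p = 0.00046), and the other 3 of this module lay between -0.17 and -0.01. NDUFC2 shares 16.3% of its exon bases with the read-through gene NDUFC2-KCTD14.

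Around ND1, where the membrane arm meets the Q module, 0 of 3 passed the test. NDUFA13, NDUFA3 and NDUFA8 had log2 fold changes of -0.27, -0.28 and -0.13 (adjusted p = 0.083, 0.138 and 0.218), all below 0. With library size alone all 3 were lower (adjusted p = 0.0131, 0.0431 and 0.0297), as they were in both FPKM fits. More of all genes were lower with library size alone too, 4871 of 12982 against 3740 with TMM. The FPKM fits had 4042 and 4071 of 11497 genes lower. NDUFA13 passed without DMSO replicate 2, its lowest DMSO library, with -0.41 and an adjusted p of 0.00704. Differences between the modules were not tested.

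**Figure D3:**
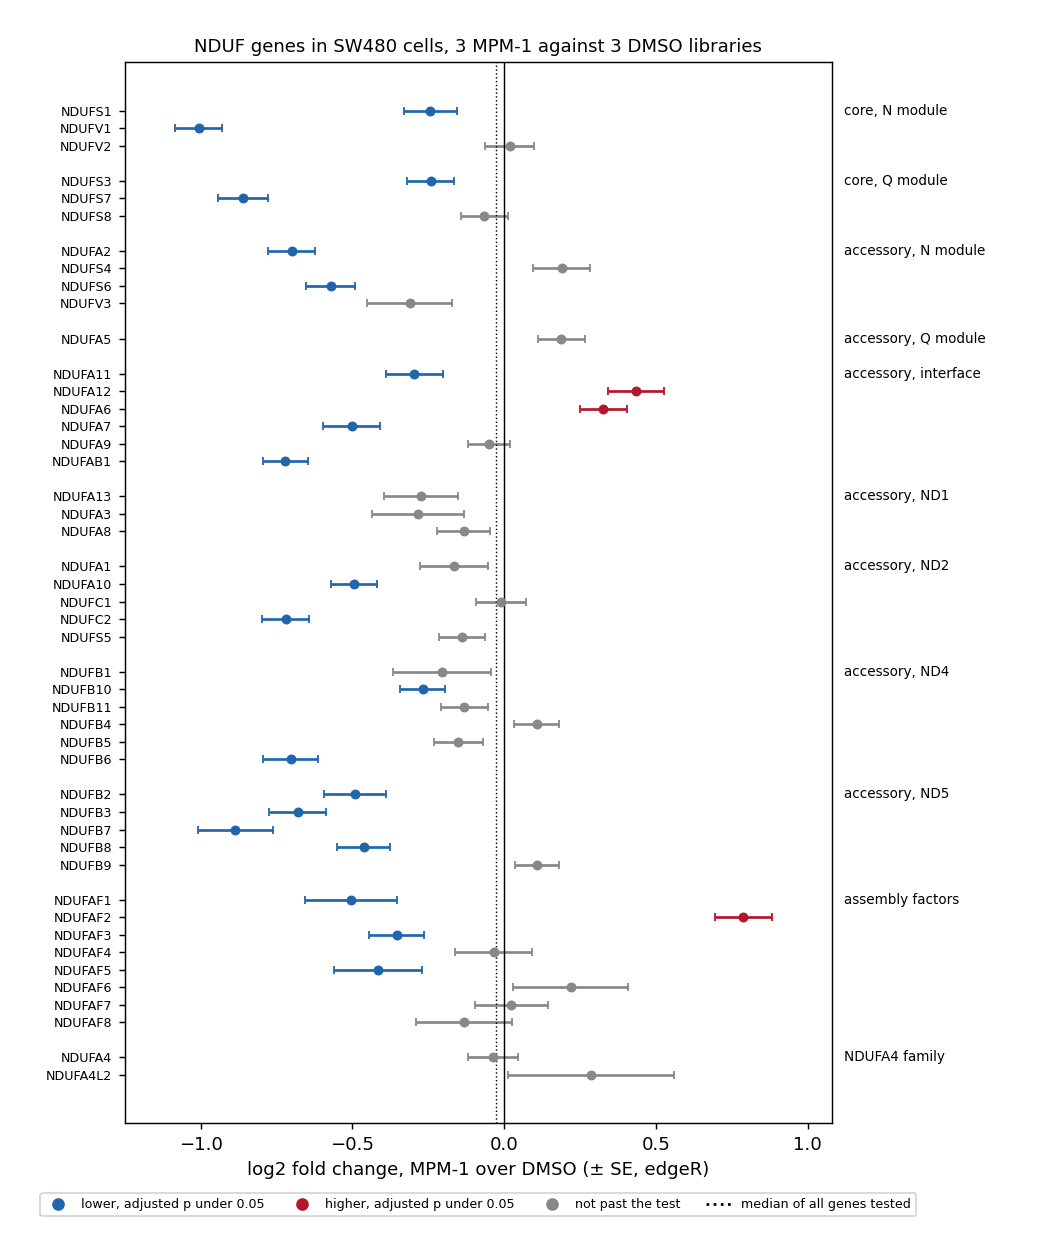
Points are log2 fold changes of MPM-1 over DMSO with their standard errors from edgeR, for the NDUF genes of the text by role. Blue points are lower and red points higher at an adjusted p-value under 0.05, grey points did not pass, and the dotted line is the median of all genes tested (-0.03). NDUFA6, NDUFA12 and NDUFAF2 are red, and the leftmost blue point is NDUFV1 at -1.01.

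Of the 8 assembly factors, 1 was higher, 3 were lower (37.5%, against 28.8% of all genes) and 4 did not pass the test, with a median log2 fold change of -0.08. Changed in either direction were 4 of 8, a share near the 56.5% of all genes. NDUFAF2, a chaperone of the late intermediate and a paralog of NDUFA12 (chr5:60945129-61153037), was at 26.7, 26.6 and 28.4 CPM with DMSO and at 42.3, 50.6 and 48.1 CPM with MPM-1. The lowest MPM-1 library stood well above the highest DMSO library, and the rise of 0.79 on the log2 scale (SE 0.0932, adjusted p = 9.73e-05) was the largest among the 47 members and passed in every setting. Within a library its count was 0.541 to 0.592 times that of NDUFA12 with DMSO and 0.698 to 0.8 times with MPM-1, so that both rose and the ratio ranges did not overlap.

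The 3 assembly factors that fell act at different steps. NDUFAF3, which binds the early Q module (chr3:49020459-49023495), was at 115, 104 and 127 CPM with DMSO and 87.4, 87.2 and 96 CPM with MPM-1 and fell by 0.35 (SE 0.0912, adjusted p = 0.0084). NDUFAF1, of the complex that assembles the inner membrane arm (chr15:41387349-41402519), was at 25.6, 23.8 and 20.7 CPM against 13.5, 19.6 and 16.4 CPM and fell by 0.50 (SE 0.151, adjusted p = 0.0172). NDUFAF5, which hydroxylates an arginine of NDUFS7 (chr20:13784950-13821582), was at 15.5, 16.1 and 19.5 CPM against 11.6, 14.4 and 12.4 CPM and fell by 0.42 (SE 0.145, adjusted p = 0.0329). None of these groups overlapped, although NDUFAF1 and NDUFAF5 came close. The fall of NDUFAF3 passed with any library left out, whereas those of NDUFAF1 and NDUFAF5 did not: without DMSO replicate 2 or MPM-1 replicate 3 both were lost and 1 of the 8 was lower.

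The remaining 4 had overlapping libraries. NDUFAF4, the partner of NDUFAF3 on the Q module (chr6:96889313-96897881), was at 23.5, 29.9 and 31.5 CPM with DMSO and 24.9, 29.9 and 28.2 CPM with MPM-1 (log2 fold change -0.03, adjusted p = 0.835). NDUFAF7, a mitochondrial methyltransferase (chr2:37231631-37253403), was at 16.6, 19.7 and 17.8 CPM against 20.2, 17.6 and 17.3 CPM (0.02, adjusted p = 0.882). NDUFAF8, which stabilizes NDUFAF5 (chr17:81239239-81241281), was at 14.3, 16.1 and 20.8 CPM against 14, 15.9 and 16.8 CPM (-0.13, adjusted p = 0.498). In these genes the spread within a treatment was as wide as the distance between treatments. NDUFAF6, needed for an early step around ND1, was at 6.61, 7.9 and 7.08 CPM against 7.16, 7.61 and 10.4 CPM, with MPM-1 replicate 3 apart from the rest (0.22, adjusted p = 0.35).

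NDUFA4 and NDUFA4L2, set apart from the complex, did not pass the test. NDUFA4, now counted as a subunit of complex IV (chr7:10931951-10940256), was at 126, 115 and 136 CPM with DMSO and 123, 127 and 118 CPM with MPM-1 (log2 fold change -0.04, SE 0.0829, adjusted p = 0.737). NDUFA4L2, a paralog known to be induced by low oxygen (chr12:57234903-57240715), was at 2.09, 1.9 and 3.06 CPM against 2.76, 2.54 and 3.31 CPM (0.29, SE 0.274, adjusted p = 0.398). Its libraries overlapped and it had the lowest level of the family. Of 8 other genes known to respond to low oxygen, 2 were higher and 4 lower (75.0% changed, against 56.5% of all genes). ADM, a vasodilator peptide, and VEGFA, an angiogenic growth factor, had log2 fold changes of 3.15 and 1.60. Those of CA9, EGLN3 and ANKRD37 were -4.003, -2.79 and -1.76, and all 5 genes were DEGs.

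Per length, the members spanned a wide range of levels. In DMSO the mean FPKM ran from 2.03 ± 0.586 (NDUFA4L2) to 273 ± 14.0 (NDUFB9), SD over 3 libraries, and NDUFB9 stayed highest after MPM-1 at 265 ± 15.8. The next in order with DMSO were NDUFB7 (217 ± 36.7), NDUFAB1 (215 ± 14.2), NDUFS8 (212 ± 12.6) and NDUFA11 (209 ± 26.5), neighbours that did not differ beyond their spread. NDUFB7 went from rank 2 of 47 to rank 10, NDUFV1 from 9 to 17 and NDUFS7 from 14 to 22, whereas NDUFAF2 went from 31 to 21 and NDUFA12 from 20 to 12. Among the assembly factors NDUFAF3 was highest with DMSO (59 ± 6.0 FPKM, rank 27), followed by NDUFAF2 (39.1 ± 1.86, rank 31) and NDUFAF8 (28.6 ± 6.05, rank 33), and after MPM-1 NDUFAF2 was highest (60.9 ± 6.31 FPKM). The length behind the FPKM of each gene is not given in the sources used here, and NDUFS1, at 140 CPM with DMSO, had 12.2 FPKM.

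The levels of the core subunits lay further apart from each other with MPM-1. Their coefficient of variation of FPKM within a library was 55.2% ± 1.75 with DMSO and 69.3% ± 2.5 with MPM-1 (SD, n = 3 libraries each), and over all 37 subunits it was 71.0% ± 1.63 and 75.0% ± 0.721. The median FPKM of the subunits was 81.1 ± 2.72 with DMSO and 64.1 ± 1.72 with MPM-1. The spread of single members between libraries of a treatment was small, with a median coefficient of variation of CPM of 6.52% with DMSO and 5.89% with MPM-1.

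**Figure D4:**
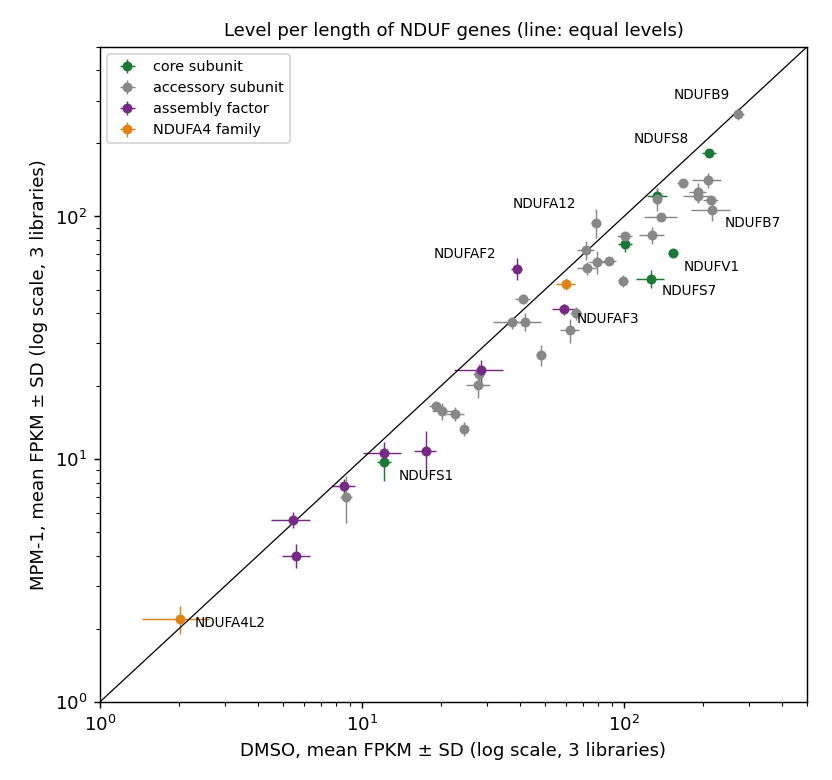
Mean FPKM of the NDUF genes of the text with DMSO (x axis) and MPM-1 (y axis), both on log scales, with bars of 1 SD over 3 libraries and a line of equal levels. Most points lie on or below the line, NDUFV1 and NDUFS7 clearly so, and NDUFAF2 (39.1 to 60.9 FPKM) and NDUFA12 (78 to 94.4 FPKM) lie above it.

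The mtDNA-encoded subunits of the same complex were lower in 7 of 7 cases, against 28.8% of all genes. Their median log2 fold change was -1.77, with a range from -2.65 to -0.71. Together they fell from 30300 ± 503 to 9920 ± 792 CPM. MT-ND6 had the largest fall, from 1490, 1230 and 1390 CPM with DMSO to 183, 210 and 265 CPM with MPM-1 (-2.65, SE 0.14). MT-ND3 had -2.28, MT-ND4 and MT-ND5 -1.77, MT-ND2 -1.60 and MT-ND4L -1.52, and these 6 were DEGs. The largest fall among the 37 nuclear subunits, that of NDUFV1, lay between those of MT-ND1 (-0.71) and MT-ND4L.

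Of 15 complex I assembly factors with other symbols, 8 were lower (53.3%, against 28.8% of all genes) and 2 higher, with a median log2 fold change of -0.34. In either direction 66.7% changed, against 56.5% of all genes. ECSIT, a partner of NDUFAF1 in the assembly of the membrane arm, was at 89.6, 73.1 and 74.4 CPM with DMSO and 39.2, 35.1 and 40.1 CPM with MPM-1 (-1.05, adjusted p = 2.71e-05). TMEM186, of the same assembly complex, was lower too, with a wide spread after MPM-1 of 2.72, 8.49 and 4.65 CPM (-1.51, SE 0.34, adjusted p = 0.00412). Other assembly factors of this list did not all fall with them. TMEM126B was higher (0.228, adjusted p = 0.0409) and TIMMDC1 lower (-0.369, adjusted p = 0.0194). ACAD9 (-0.205, adjusted p = 0.103) and COA1 (-0.01, adjusted p = 0.924) did not pass the test. TMEM126A, which acts in the assembly of the ND4 module, was higher at 36.9, 31.1 and 28.7 CPM against 25.1, 18.8 and 22.9 CPM (0.53, adjusted p = 0.00773).

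The nuclear genes of the other complexes were also more often lower than higher. Over complexes II to V, the list held the subunits and ATPase inhibitor without the complex II assembly factors. Of its 41 genes, 28 were lower (68.3%, against 28.8% of all genes) and 1 was higher, with a median of -0.36. The difference from the 18 of 37 in complex I was not tested. With their assembly factors, 7 of 8 genes of complex II were lower, led by SDHA, its flavoprotein (-0.997, SE 0.082). In complex III it was 8 of 9, led by CYC1, cytochrome c1 (-0.85), in complex IV 5 of 10, led by COX8A (-0.65), and in complex V 11 of 18, led by ATP5F1D (-0.86). The 1 riser was ATP5IF1, the inhibitor of ATP synthase (0.33, adjusted p = 0.0157).

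**Figure D5:**
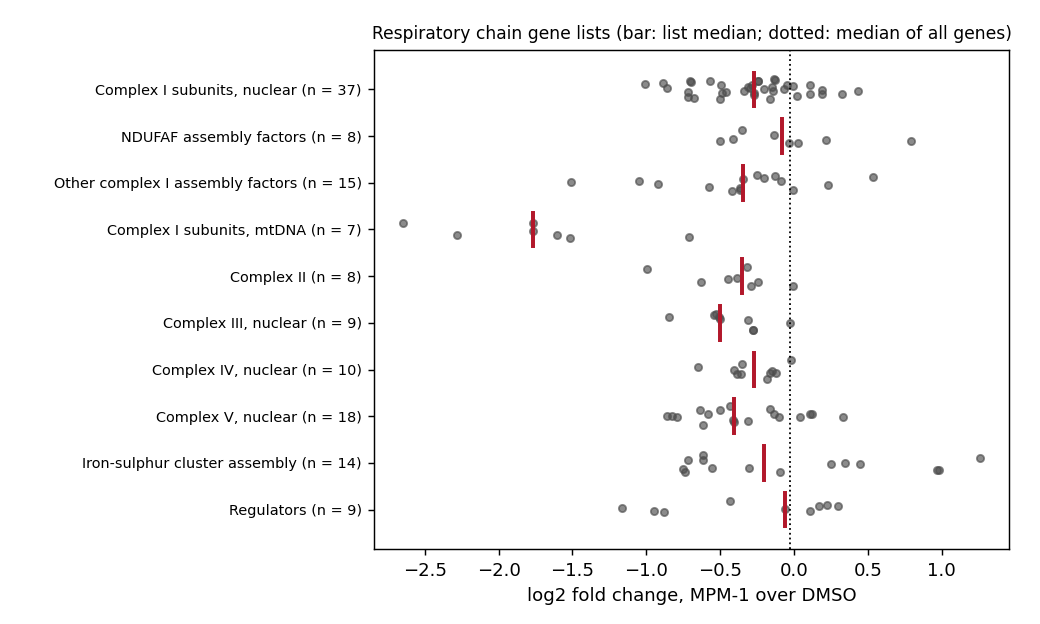
Each point is the log2 fold change of a gene and each red bar the median of its list, with the dotted line at the median of all genes (-0.03). The nuclear complex I subunits (median -0.27) lie near the nuclear genes of complexes II to V, the mtDNA-encoded subunits of complex I lie furthest left (median -1.77), and the NDUFAF assembly factors (median -0.08) straddle the dotted line.

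Iron-sulphur clusters are built by a separate set of proteins, and complex I holds several clusters. Of 14 genes of cluster assembly, NDUFAB1 among them, 4 were higher and 7 lower. The shares over all genes tested were 27.7% higher and 28.8% lower. ISCU, the scaffold on which clusters form, was at 109, 93.8 and 96.6 CPM with DMSO and 232, 249 and 234 CPM with MPM-1, a DEG at 1.26 (SE 0.082, adjusted p = 3.06e-06), and NFU1, a late carrier, was at 0.98. NFS1, the cysteine desulphurase that supplies sulphur, was lower (-0.74), as was IBA57, a late factor of low level (-0.75, adjusted p = 0.0227). The directions within this list were thus mixed.

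Of 9 regulators of respiratory chain genes, 4 were lower (44.4%, against 28.8% of all genes) and 2 higher. In either direction 66.7% changed, against 56.5% of all genes, and the median log2 fold change was -0.063, beside -0.026 for all genes. The factors whose motifs were searched were measured as well: NRF1 was at 16.9, 14.1 and 13.2 CPM with DMSO and 15.3, 17.8 and 16.5 CPM with MPM-1 (0.17, adjusted p = 0.324), GABPA was lower (-0.44, adjusted p = 0.0016) and YY1 higher (0.22, adjusted p = 0.0458). GABPB2, a partner of GABPA, was a DEG of low level, at 3.82, 5.56 and 5.35 CPM against 2, 2.44 and 2.14 CPM (-1.16), whereas GABPB1 was higher (0.29, adjusted p = 0.0207). TFAM, which packs and transcribes mtDNA, was lower at -0.88. Over all lists of the pathway other than the NDUF rows, 56 of 89 genes were lower and 9 higher, with a median log2 fold change of -0.36. Of all genes tested, 28.8% were lower and 27.7% higher.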

How the data were processed

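mRNA of SW480 cells was sequenced 24 h after addition of DMSO or MPM-1, in 3 libraries each, grouped by the sample labels. The authors deposited 1 table of 12982 genes with a raw count per library, in whole numbers, and the FPKM per library, scaled by the authors for length and library size. Every gene in it had at least 115 counts over the 6 libraries. A log2 fold change and an FDR per gene, also in the table, hold the authors' own comparison and were not used. The submitters' processing notes name HISAT2, DESeq2 and mm10, a mouse build, although the identifiers are human, so coordinates were taken from GENCODE release 29 on GRCh38 by identifier. Libraries held 31733667 to 40269820 counts, and intervals from counts would cover counting error only. Libraries of the same treatment differed by more than sampling noise, with a chi-square of 15.4 to 33.3 per gene.

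Counts were tested with edgeR 4.0.16 in R 4.3.3 (TMM, quasi-likelihood test, all 6 libraries, no covariates, Benjamini-Hochberg adjustment over all genes, no filter), and log values used a prior count of 2. The fit was tested on simulated data. The alternatives were DESeq2's size factors and test (1.42.0), library size alone, TMM without mtDNA-encoded genes, a mean of at least 50 counts, a block for the replicate number, leaving out single libraries, limma (3.58.1) on log2(FPKM + 0.1) and log2(FPKM + 1) over the 11497 genes that averaged 1 FPKM or more, a stricter threshold, and an offset for GC content and length (loess, span 0.3) over 12127 genes (93.4%, all 47 members included), which was combined with the block after seeing the data.

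Members and gene lists were chosen with earlier results of these data known. Values were given per library for the core subunits, every DEG among members, the largest rise and fall among changed members of each role group, all assembly factors, NDUFA4 and NDUFA4L2. From each other list its DEGs or its largest rise and fall are named, some with fold changes alone. NDUFA6, the genes of the 3 motif factors, and NFU1, NFS1, TFAM, TMEM126B, TIMMDC1, ACAD9 and COA1 were added after their values were seen. A core subunit is not reported here and enters the counts and medians alone. In GENCODE, 7 members share at least 10% of their exon bases with a coding gene on the same strand, 16 share some with a coding gene on the other strand, and 19 have annotated pseudogenes, up to 12 for NDUFA5 and NDUFB4, so reads of these genes may have been split.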

Additional observations from a re-analysis of the deposited data

How the results depend on the processing

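With 1 library left out, 249 of 282 member values kept their direction and their side of the threshold, as did 408 of 470 under the other 10 settings. The calls of 2 of 3 higher and 15 of 21 lower members stood in every setting, the exceptions being NDUFA6, NDUFB10, NDUFS1, NDUFS3, NDUFA11, NDUFAF1 and NDUFAF5. Library size alone shifted the median of all genes from -0.026 to -0.176, limma on log2(FPKM + 0.1) to -0.145 and on log2(FPKM + 1) to -0.126.

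Library size alone gave 28 lower subunits and 1 higher, as against 18 and 2, and both FPKM fits gave 1 higher. Of all 12982 genes, library size alone gave 4871 lower and 2589 higher, as against 3740 and 3596. Of 11497 genes, the FPKM fits gave 4042 and 4071 lower. The median of the subunits was -0.42 with library size alone, -0.394 and -0.39 with the FPKM fits, and -0.29 to -0.205 with 1 library left out. That of the assembly factors was -0.236, -0.228 and -0.218, and ran from -0.198 (without DMSO replicate 1) to 0.024 (without DMSO replicate 3). Lower assembly factors numbered 1 at an adjusted p under 0.01, and 1 to 3 with 1 library left out. Of the other genes of the pathway, library size alone gave 5 higher, and the medians were -0.515, -0.495 and -0.481. Members past the DEG threshold numbered 0 with DESeq2's size factors, DESeq2's test and the GC and length offset with or without the block, 3 with library size alone and both FPKM fits, and 0 to 2 with 1 library left out (0 without DMSO replicate 1 or MPM-1 replicate 2 or 3, and 2 without DMSO replicate 2). The YY1 motif was held by 5.13% of members with the bases before the start alone.

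The sign turned only in members that had not passed the test. With library size alone it turned in NDUFB9 (-0.042), NDUFB4 (-0.043), NDUFV2 (-0.133) and NDUFAF7 (-0.13). On log2(FPKM + 0.1) and log2(FPKM + 1) it turned in NDUFB9 (-0.042 in both), NDUFB4 (-0.182 and -0.181), NDUFV2 (-0.136 and -0.135), NDUFAF7 (-0.138 and -0.124) and NDUFA5 (-0.026 in both). With the GC and length offset, alone and with the block, it turned in NDUFB4 (-0.044 in both), NDUFV2 (-0.135 and -0.136) and NDUFAF7 (-0.127 and -0.128). With DESeq2's size factors and test it turned in NDUFC1 (0.01 in both). With 1 library left out the values ran to both sides of 0 in NDUFA4 (-0.096 to 0.027), NDUFAF4 (-0.15 to 0.05), NDUFAF7 (-0.035 to 0.092), NDUFAF8 (-0.246 to 0.034), NDUFC1 (-0.051 to 0.031) and NDUFV2 (-0.037 to 0.064). The cause was not tested.

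Libraries that share a replicate number deviated from their group means with correlations of 0.0214, 0.114 and -0.0737. Replicate 2 of each treatment correlated best with its own number, and not every library did so. With 3 libraries per treatment, these correlations cannot tell whether a number marks a shared batch. With the replicate number as a block, 18 subunits were lower and 2 higher, 3 assembly factors were lower and 1 higher, and the call of all 47 members was the same.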
